A study of Mus musculus with 20 samples.

Results

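The 9 genes followed here encode proteins that tie the contractile machinery of a heart muscle cell to the matrix around it. They are Dmd, Dag1, Sgca and Utrn of the dystrophin complex, the adaptors Vcl and Tln2, the integrin subunits Itgb1 and Itga7, and Itgb1bp3, whose product binds an integrin in muscle. They were taken by symbol from the gene column of 20 tables of expression in whole mouse heart, 1 table per heart. These are 9 of the 23284 genes in the tables, and all 9 were among the 12589 genes tested, whose level averaged 0.5 FPKM or more (fragments per kilobase of transcript, with library size divided out).

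Costameres are rib-like protein assemblies that lie under the muscle cell membrane over the Z-discs of the outermost myofibrils and pass force sideways to the basement membrane. Each is built from a pair of linked systems. In the dystrophin complex, dystrophin runs from cortical actin to β-dystroglycan in the membrane, α-dystroglycan outside the cell holds laminin, and sarcoglycans such as α-sarcoglycan brace the assembly; utrophin is the close relative of dystrophin that can take its place. In the integrin system, α7β1 integrin, the main laminin receptor of striated muscle, is coupled to actin by talin and vinculin, and loss of dystrophin, or of vinculin in cardiac myocytes, is known to give cardiomyopathy.

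The study compared hearts of control mice, labelled Wnt5a floxed, with hearts of CKO mice, which carry the floxed Wnt5a together with Myh6-Cre/Esr 1. Myh6 is the gene of the adult cardiac myosin heavy chain, so its promoter drives Cre in cardiac myocytes and other cells of the heart keep Wnt5a, a secreted Wnt ligand. All mice were C57BL/6, and hearts were taken when tamoxifen treatment had ended, with no operation, or 2 or 4 weeks after surgery, which was either sham or TAC, the transverse aortic constriction that loads the left ventricle with pressure. Each of these 5 stages had 2 control and 2 CKO hearts, 20 hearts in 10 groups, here named by the heart numbers in the labels. The floxed allele is common to all groups, the Cre transgene is in the CKO groups only, and an effect of the transgene itself and of the loss of Wnt5a cannot be told apart. Sex, age and pooling are not stated in the labels, and p-values measure only the spread between the 2 hearts of a group.

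Total FPKM per heart was 579595 to 713671 and relative sequencing depth differed from 0.877 to 1.21 between hearts; absolute depth is unknown, so no counting interval is given. Without TAC, Wnt5a was 2.55 to 4.11 FPKM in control and 1.61 to 2.33 FPKM in CKO hearts. After TAC it was 1.58 to 2.06 FPKM in control and 0.853 to 1.57 FPKM in CKO hearts. Over all stages Esr1, part of whose sequence is in the transgene, was 0.101 to 0.465 FPKM in control and 197 to 931 FPKM in CKO hearts. All 10 cardiac myocyte markers examined averaged above 0.5 FPKM, with a summed level of 67476 FPKM or more in every heart. In 5 hearts (11, 14, 16, 21 and 24) Myl7, an atrial myosin light chain, stood at 32.2 to 372 FPKM, against at most 1.66 FPKM in the others. In whole tissue, fewer cells of a type and less RNA per cell cannot be told apart.

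Per kilobase of transcript, Itgb1, the β1 chain shared by many integrins, was the most abundant of the 9, with a mean of 161 ± 24.3 FPKM (SD, n = 20 hearts; genome build mm10, chromosome 8, 128685654 to 128733200, plus strand). Sgca, α-sarcoglycan (chromosome 11, 94962791 to 94976327, minus strand), stood at 113 ± 19.9 FPKM and Dag1, the precursor of both dystroglycans (chromosome 9, 108204634 to 108263958, minus strand), at 70.9 ± 12.3 FPKM. Itga7, the α7 chain (chromosome 10, 128933818 to 128958282, plus strand), had a mean of 54.7 ± 4.86 FPKM, and Vcl, vinculin (chromosome 14, 20929398 to 21033676, plus strand), of 38.1 ± 3.15 FPKM. Dmd on the X chromosome (82948870 to 85206141, plus strand) stood at 15.9 ± 2.48 FPKM. Its relative Utrn (chromosome 10, 12382188 to 12869365, minus strand) had the lowest mean over the 20 hearts, at 9.60 ± 1.10 FPKM. In the 12 hearts without TAC the mean of Itgb1bp3 was lower, at 5.25 FPKM against 9.47 FPKM for Utrn. Tln2, the talin of mature striated muscle costameres (chromosome 9, 67217087 to 67559703, minus strand), was at 8.28 to 11.6 FPKM. Itgb1bp3, annotated as Nmrk2 in GENCODE M21 (chromosome 10, 81198170 to 81202051, minus strand), encodes a protein known both as a muscle integrin-binding protein and as nicotinamide riboside kinase 2, an enzyme of NAD synthesis; its level was 12.0 ± 11.0 FPKM.

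The SD of Itgb1bp3 was thus close to its mean, and its group means differed 8.71-fold from lowest to highest. For the other 8 genes that span was 1.21-fold (Vcl) to 1.69-fold (Sgca). The 2 hearts of a group differed at most 1.11-fold for Tln2 and 1.13-fold for Itgb1, but up to 1.69-fold for Dag1 and 2.38-fold for Itgb1bp3, which limits what these pairs can show for the latter genes. Library preparation marked strand, but no source used here says whether the counting kept it. Vcl overlaps Ap3m1 on the other strand, which was at 7.6 to 10.3 FPKM; Hils1, opposite Sgca, was at 0 to 2.69 FPKM, and an antisense gene opposite Itgb1bp3 has no value in the tables.

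**Figure D1:**
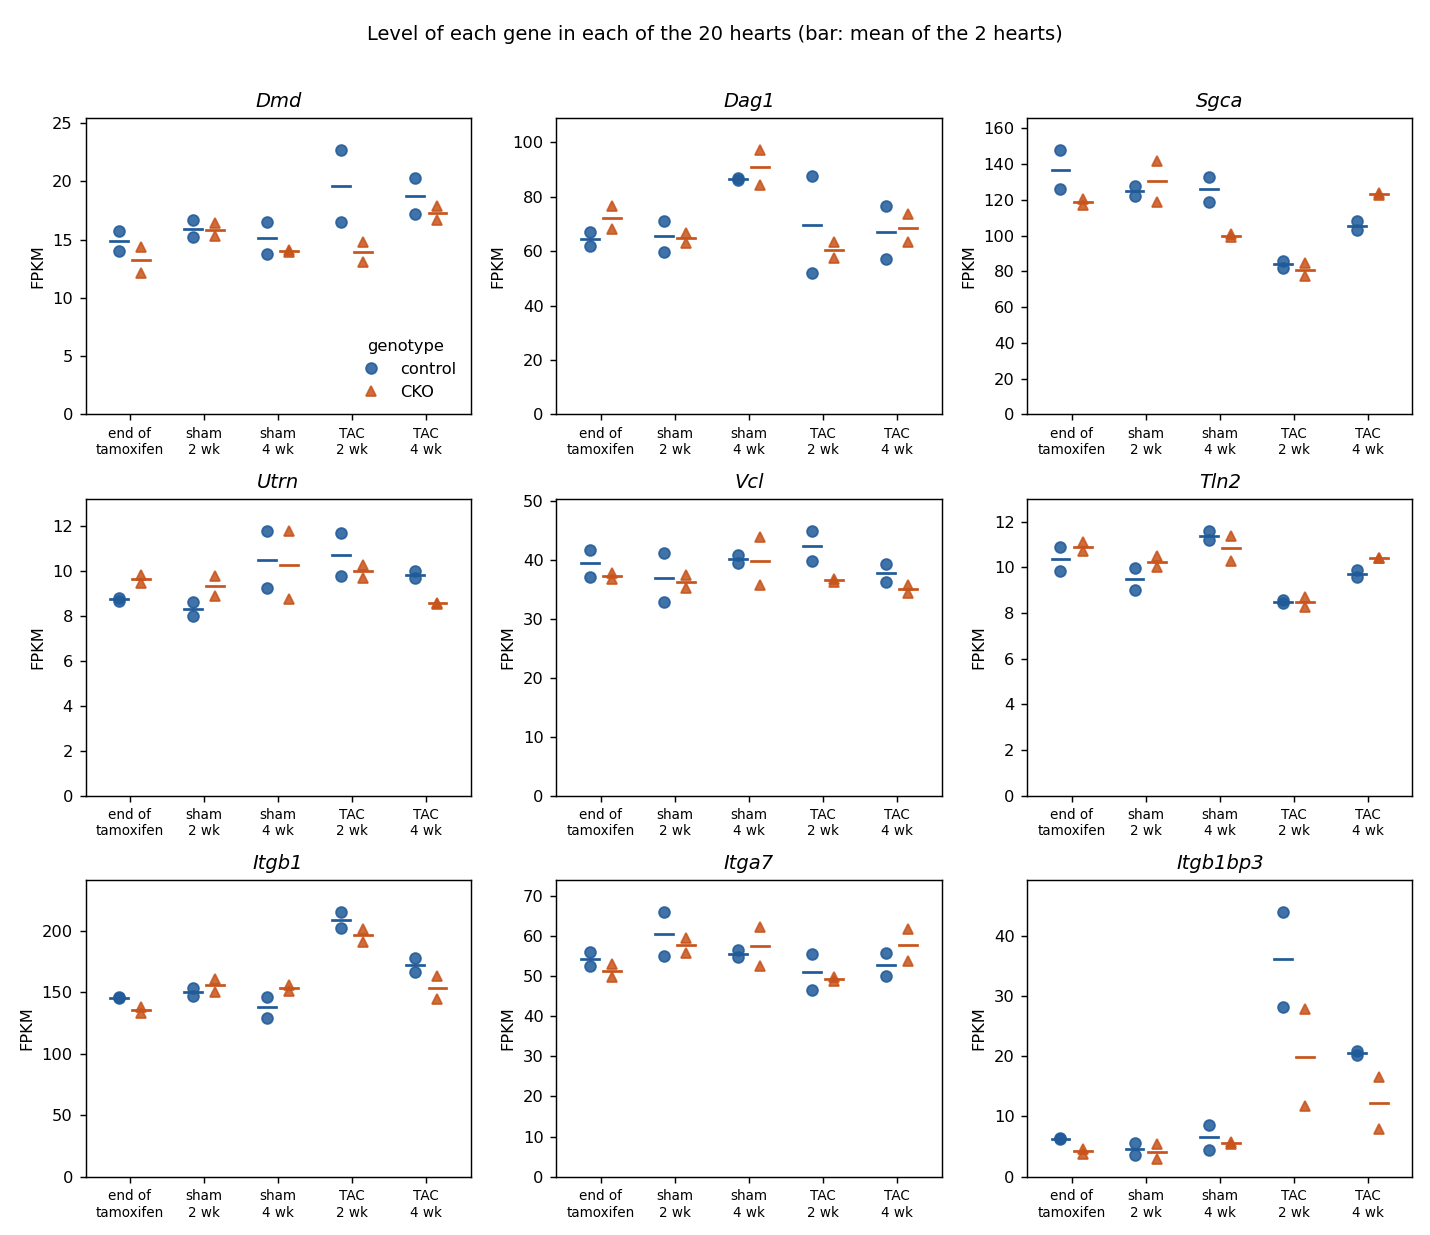
FPKM of each of the 9 genes in each of the 20 hearts (points; circles control, triangles CKO), with the mean of the 2 hearts of each group as a bar, on linear axes from 0. Itgb1bp3 is at 7.91 to 43.9 FPKM in the 8 TAC hearts and at 2.86 to 8.63 FPKM in the 12 others; the other genes move far less.

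Promoter windows from RefSeq (GRCm38.p6, 250 bases before to 50 after an annotated start) were found for 7 of the 9 genes, and not for Tln2 and Itga7. Those of Itgb1bp3, Itgb1 and Sgca are shown because these genes had the largest called differences after TAC in control hearts, and that of Vcl because it holds a pair of motifs of muscle promoters. The windows lie at chr10:81201988-81202287 (minus strand), chr8:128685404-128685703 (plus), chr11:94976278-94976577 (minus) and chr14:20929148-20929447 (plus). They are written 5′ to 3′, with matches to the searched motifs in capitals.
Itgb1bp3: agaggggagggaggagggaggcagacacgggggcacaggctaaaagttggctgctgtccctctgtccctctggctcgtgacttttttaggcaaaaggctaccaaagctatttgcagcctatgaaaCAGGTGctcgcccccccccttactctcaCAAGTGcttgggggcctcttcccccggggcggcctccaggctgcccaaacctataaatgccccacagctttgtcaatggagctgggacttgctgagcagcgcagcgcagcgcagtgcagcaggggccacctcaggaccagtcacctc
Itgb1: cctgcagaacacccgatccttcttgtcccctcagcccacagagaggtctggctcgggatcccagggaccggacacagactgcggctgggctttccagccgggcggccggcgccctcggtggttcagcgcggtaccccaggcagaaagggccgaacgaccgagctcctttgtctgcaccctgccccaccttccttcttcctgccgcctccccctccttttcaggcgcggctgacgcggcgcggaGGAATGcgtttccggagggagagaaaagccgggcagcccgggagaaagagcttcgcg
Sgca: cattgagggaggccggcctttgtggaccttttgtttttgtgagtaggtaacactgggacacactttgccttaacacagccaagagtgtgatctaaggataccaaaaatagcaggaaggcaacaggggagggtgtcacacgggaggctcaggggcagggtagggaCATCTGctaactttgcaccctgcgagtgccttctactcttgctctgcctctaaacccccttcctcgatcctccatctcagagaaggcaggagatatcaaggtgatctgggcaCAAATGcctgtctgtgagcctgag
Vcl: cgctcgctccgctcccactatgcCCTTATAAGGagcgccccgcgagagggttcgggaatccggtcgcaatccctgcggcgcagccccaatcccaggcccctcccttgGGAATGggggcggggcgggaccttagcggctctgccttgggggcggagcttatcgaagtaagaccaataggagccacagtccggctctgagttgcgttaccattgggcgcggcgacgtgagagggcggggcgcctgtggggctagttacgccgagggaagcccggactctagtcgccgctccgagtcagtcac
Searched on both strands were the MCAT core bound by TEAD factors (CATTCC, or GGAATG when on the other strand), the CArG box of serum response factor, and the E-box CANNTG; among 32851 windows of the same length, 14.7% held an MCAT core, 1.63% a CArG box and 72.3% an E-box. The Itgb1bp3 window held 2 E-boxes, starting at −125 and −97 from the start. Itgb1 had an MCAT core at −7, and Sgca had 2 E-boxes, at −86 and 27. Vcl had an MCAT core at −143 and a CArG box at −227. The first Dmd window also held a CArG box, at −98. A match here describes letters only.

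TAC in control hearts went with more Itgb1bp3 and Itgb1 transcript and less Sgca and Tln2. In the mean over both times, Itgb1bp3 was 4.71-fold and Itgb1 1.32-fold higher, while Sgca was at 0.751 and Tln2 at 0.882 of sham; Dmd, Dag1, Utrn, Vcl and Itga7 did not pass the test (limma on log2(FPKM + 0.5), Benjamini-Hochberg adjusted p under 0.05 over all genes tested, 4 hearts against 4). So 4 of 9 genes were called, 2 higher and 2 lower, where 31.4% of all genes were called, and the count itself does not set the 9 apart. Their median log2 difference was 0.06 and that of all genes 0.00.

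Itgb1bp3 stood at 3.61 and 5.60 FPKM in the control sham hearts at 2 weeks and at 4.50 and 8.63 FPKM at 4 weeks. After TAC it stood at 28.2 and 43.9 FPKM at 2 weeks and at 20.2 and 20.8 FPKM at 4 weeks. Every TAC heart lay above every sham heart, and the lowest TAC value was well above the highest sham value. The log2 difference was 2.23 ± 0.30 (SE, 95% interval 1.60 to 2.87, adjusted p = 9.3e-05), and it was 2.83 ± 0.42 at 2 weeks (adjusted p = 3.8e-04) and 1.64 ± 0.42 at 4 weeks (adjusted p = 0.022). The call at 4 weeks was lost without heart 1, 2 or 6 (log2 differences 1.66, 1.62 and 1.20), fits that leave a single heart on a side.

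Among the integrin chains, Itgb1 was at 153 and 147 FPKM in the control sham hearts at 2 weeks and at 129 and 146 FPKM at 4 weeks. With TAC it was at 202 and 215 FPKM at 2 weeks and at 178 and 166 FPKM at 4 weeks, above all 4 sham hearts at both times. The log2 difference over both times was 0.40 ± 0.06 (SE, adjusted p = 2.2e-04), with 0.47 ± 0.08 at 2 weeks (adjusted p = 0.0012) and 0.32 ± 0.08 at 4 weeks (adjusted p = 0.023). At 4 weeks the call was lost without heart 1, 2 or 6 (0.27, 0.37 and 0.23), fits that leave a single heart on a side. It was also lost, at an unchanged 0.32, without the 5 hearts with high Myl7. None of those hearts is in the control 4-week groups, so only the shared estimate of the spread and the adjustment over all genes changed. Its muscle partner Itga7 did not pass the test: sham hearts held 55.0, 65.9, 54.7 and 56.4 FPKM and TAC hearts 46.6, 55.4, 49.9 and 55.7 FPKM, which overlap, and the log2 difference was −0.16 ± 0.08 (adjusted p = 0.16). The ratio of Itgb1 to Itga7 FPKM was 2.23 to 2.78 in the 4 control sham hearts and 2.97 to 4.33 in the 4 control TAC hearts, as a description.

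Of 15 integrin α and β subunits tested, Itgb1 and Itga7 among them, 6 were higher and 1 lower in control TAC hearts, where 31.4% of all genes were called; their median log2 difference was 0.31, against 0.00 for all genes. Itga9, a partner of β1, rose by 0.84 ± 0.10 (adjusted p = 2.6e-05) from 11.2 to 20.6 FPKM in the means. Itgb5 and Itgav, whose products pair as a vitronectin receptor, rose by 0.47 ± 0.06 and 0.38 ± 0.08 (adjusted p = 1.2e-04 and 0.0024). Itgb6 fell from 8.12 ± 1.44 to 3.37 ± 1.46 FPKM (SD, n = 4), a log2 difference of −1.24 ± 0.21 (adjusted p = 6.6e-04). None of the 3 leukocyte integrin genes tested passed (Itgb2 0.60 ± 0.22, adjusted p = 0.052; Itgam 0.44 ± 0.20, adjusted p = 0.10; Itgal 0.45 ± 0.27, adjusted p = 0.22). Over the alternative settings 0 to 2 of them were called. Macrophage markers were higher for 7 of 10 genes, and for 0 to 8 over the settings, with summed levels of 604 to 914 FPKM against 387 to 746 FPKM in sham. Fibroblast markers, 8 of 10 higher and 1 lower, summed to 1356 to 2325 FPKM against 1338 to 1481 FPKM; Itgb1, Itga9 and Itgav are also made by such cells, and their part in these results was not tested.

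In the dystrophin complex, Sgca was the member that fell. Control sham hearts held 122 and 128 FPKM at 2 weeks and 119 and 133 FPKM at 4 weeks; TAC hearts held 81.9 and 86.1 FPKM at 2 weeks and 103 and 108 FPKM at 4 weeks. All 4 TAC hearts lay below all 4 sham hearts, the 2-week hearts furthest. The log2 difference was −0.41 ± 0.07 over both times (adjusted p = 5.4e-04), −0.58 ± 0.10 at 2 weeks (adjusted p = 0.0010) and −0.25 ± 0.10 at 4 weeks, where it missed the threshold (adjusted p = 0.11). Without the 5 hearts with high Myl7, the 2-week value was −0.50 and missed the threshold, with only heart 32 left against heart 12. At 2 weeks, summed levels of the 10 cardiac myocyte markers were 71375 to 81055 FPKM after TAC and 97368 to 99955 FPKM in sham. At 4 weeks they were 82287 to 90016 FPKM after TAC and 76099.8 to 88757 FPKM in sham, which overlap. Over both times 1 of these markers was higher and 4 lower, where 31.4% of all genes were called. Their part in the lower Sgca was not tested.

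Dmd, dystrophin itself, lay the other way without passing the test. Control sham hearts held 15.2 and 16.7 FPKM at 2 weeks and 13.8 and 16.5 FPKM at 4 weeks, and TAC hearts 16.5, 22.7, 20.3 and 17.2 FPKM. Heart 11, at 16.5 FPKM, overlapped the sham range, and the other 3 TAC hearts were above it. The log2 difference of 0.29 ± 0.10 had an adjusted p of 0.051. Over 29 alternative settings it was 0.17 to 0.43, and it passed in 6 of them. Without heart 2, 7 or 11 it was 0.35, 0.35 and 0.40, and without the 5 hearts with high Myl7 it was 0.43. Those fits leave some groups with a single heart. The ratio of Dmd to Sgca FPKM was 0.116 to 0.130 in control sham and 0.160 to 0.264 in control TAC hearts. Utrn was at 8.02 to 11.8 FPKM in sham and 9.70 to 11.7 FPKM in TAC hearts (log2 difference 0.13 ± 0.10, adjusted p = 0.32).

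Dag1, the laminin-binding core, did not pass at either time. In control TAC hearts at 2 weeks it was at 51.9 FPKM in heart 11 and 87.6 FPKM in heart 32, and the 4 sham hearts (59.7, 71.1, 86.7 and 86.0 FPKM) lay between these values. At 4 weeks the TAC hearts, at 76.7 and 57.2 FPKM, lay below both sham hearts (−0.38 ± 0.19, adjusted p = 0.22), and so did the CKO TAC hearts, at 73.5 and 63.2 FPKM against 84.4 and 97.2 FPKM (−0.41 ± 0.19, adjusted p = 0.40). Over both times in control hearts the log2 difference was −0.17 ± 0.14 (adjusted p = 0.39). It was −0.35 without heart 32 (adjusted p = 0.030) and 0.02 without heart 11.

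Over the 15 tested genes of the dystrophin complex, 2 were higher and 3 lower in control TAC hearts, a share near the 31.4% of all genes called, with a median log2 difference of 0.13. Over the alternative settings 2 to 4 were higher and 1 to 3 lower. Sntb1, β1-syntrophin, an adaptor that binds dystrophin, rose from 0.713 to 2.05 FPKM in the means (log2 difference 1.02 ± 0.26, adjusted p = 0.0084), and Sgce, ε-sarcoglycan, which is also found outside striated muscle, rose by 0.30 ± 0.07 (adjusted p = 0.0063; 0.30, adjusted p = 0.050, without the hearts with high Myl7). The muscle sarcoglycan gene Sgcb fell by 0.28 ± 0.09 (adjusted p = 0.035) and sarcospan, Sspn, by 0.22 ± 0.08 (adjusted p = 0.044). Both of these calls were fragile. Sgcb lost its call without heart 1, 2, 7, 16 or 32, and Sspn without heart 1, 6, 7, 12, 16 or 32. Sspn also lost it without heart 21 or 24, CKO hearts outside this comparison, with the difference unchanged at −0.22. Without the 5 hearts with high Myl7, Sgcb and Sspn both missed the threshold (−0.29 and −0.23). Sgcz, Sntg1, Sntg2 and Nos1 of the same list were below the limit for testing.

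Enzymes that build the laminin-binding sugar chain on α-dystroglycan were counted too: 0 of 13 were higher and 5 lower in control TAC hearts, near the 31.4% of all genes called. The number lower was 2 to 5 over the alternative settings. Pomt1, which starts the chain, fell by 0.69 ± 0.13 (adjusted p = 0.0010), and B3gnt1, a glucuronyltransferase of this chain, by 0.37 ± 0.08 (adjusted p = 0.0035). On the ligand side, of 17 laminin and basement membrane genes, 10 were higher and 3 lower, against the same 31.4%, with a median log2 difference of 0.42. Col4a1 and Col4a2, the collagen IV chains found in most basement membranes, rose by 0.99 ± 0.11 and 0.94 ± 0.11 (adjusted p = 2.8e-05 and 2.6e-05), and Col4a5 and Col4a3 by 0.53 ± 0.08 and 0.76 ± 0.13 (adjusted p = 2.5e-04 and 6.9e-04). Lamb3, a laminin chain best known from epithelia, fell from 4.89 to 2.04 FPKM (−1.09 ± 0.14, adjusted p = 6.0e-05).

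Of the adaptors, Tln2 was lower by a small margin. Control sham hearts held 9.0, 9.96, 11.6 and 11.2 FPKM and TAC hearts 8.44, 8.57, 9.57 and 9.88 FPKM, so that the 4-week TAC hearts lay within the range of the sham hearts at 2 weeks while, at each time, both TAC hearts were below both sham hearts. The log2 difference was −0.18 ± 0.06 (adjusted p = 0.043). That call was lost when only the groups compared were fitted (adjusted p = 0.11). It was also lost without heart 1, 2, 6, 7, 11, 16 or 32 (−0.19 to −0.15) and without the 5 hearts with high Myl7 (−0.14). Without heart 3, 13, 15, 21, 24 or 41, all CKO hearts outside this comparison, the difference stayed at −0.18. The call was lost there too, through the shared spread and the adjustment. Vcl was at 32.8 to 41.1 FPKM in sham and 36.2 to 44.9 FPKM in TAC hearts, so the ranges overlapped, although at 4 weeks both TAC hearts (39.3 and 36.2 FPKM) were below both sham hearts (39.4 and 40.8 FPKM), with a pooled log2 difference of 0.06 ± 0.08 (95% interval −0.12 to 0.23, adjusted p = 0.64).

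Around these adaptors, 15 of 34 costamere and adhesion genes were higher and 3 lower, where 31.4% of all genes were called, with a median log2 difference of 0.23. The number higher was 10 to 16 over the alternative settings. Desmin, Des, the intermediate filament that links Z-discs to costameres, rose from 1055 ± 60.4 to 1861 ± 106 FPKM (SD, n = 4; 0.82 ± 0.06, adjusted p = 5.8e-07). Nrap, which anchors end-most actin filaments, rose by 0.94 ± 0.10 (adjusted p = 1.5e-05), the non-muscle α-actinin gene Actn1 by 1.00 ± 0.14 (adjusted p = 1.7e-04) and filamin C, Flnc, by 0.83 ± 0.12 (adjusted p = 2.2e-04). Tln1, the talin of most other cells, stood at 0.47 ± 0.10 (adjusted p = 0.0035), opposite in sign to Tln2; it was singled out after its values were seen.

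Itgb1bp3 also belongs to NAD synthesis, and of 11 such genes tested in control hearts 2 were higher and 4 lower, where 31.4% of all genes were called. Nampt, the first enzyme of the salvage route from nicotinamide, fell from 64.2 ± 9.08 to 37.9 ± 3.69 FPKM (SD, n = 4; −0.75 ± 0.13, adjusted p = 6.0e-04). Nmnat1 and Nmnat3, which make NAD in the nucleus and in mitochondria, fell by 0.52 ± 0.09 and 0.45 ± 0.08 (adjusted p = 4.5e-04 and 0.0013), and Naprt1, which uses nicotinic acid, by 0.49 ± 0.10 (adjusted p = 0.0026). Nnmt, which methylates nicotinamide, was the other gene that rose, by 0.95 ± 0.21 (adjusted p = 0.0044). Nmrk1, the relative of Itgb1bp3, was not found by symbol in the tables.

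**Figure D2:**
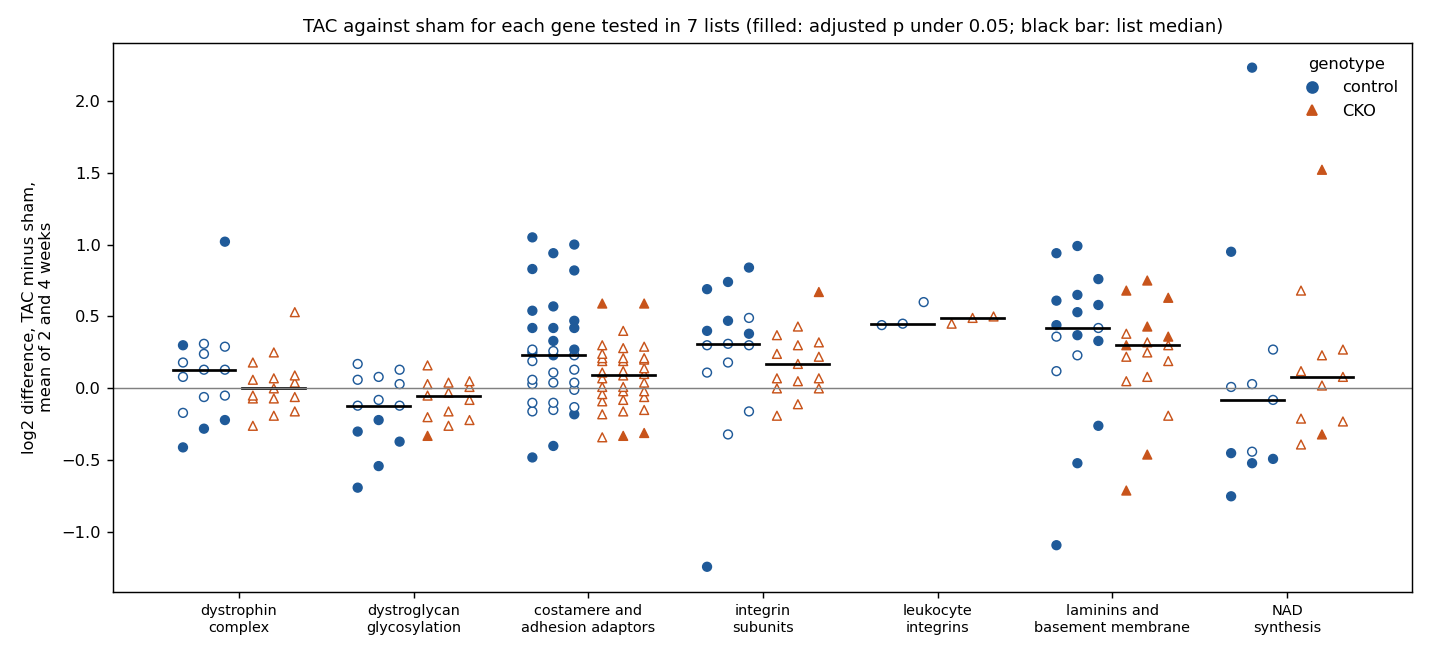
log2 difference between TAC and sham, mean of 2 and 4 weeks, for each tested gene of the 7 lists (circles control, triangles CKO; filled, adjusted p under 0.05; black bar, list median). In control hearts, 10 of 17 laminin and basement membrane genes and 15 of 34 adaptors are higher, and Itgb1bp3 is the highest point, at 2.23 in control and 1.52 in CKO hearts.

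In CKO hearts, Itgb1bp3 was the gene of the 9 that passed the test for TAC over both times, 1 of 9 where 9.11% of all genes were called. It was at 5.42, 2.86, 5.48 and 5.74 FPKM in the sham hearts (14, 15, 4 and 8) and at 11.7, 27.9, 16.6 and 7.91 FPKM in the TAC hearts (13, 31, 3 and 41). All TAC hearts were above all sham hearts, though heart 41 was close to them. The log2 difference was 1.52 ± 0.30 (95% interval 0.88 to 2.16, adjusted p = 0.0085), and 0.072 was the adjusted p when only the CKO groups compared were fitted. Itgb1 (0.17 ± 0.06, adjusted p = 0.095), Sgca (−0.19 ± 0.07, adjusted p = 0.11) and Tln2 (−0.16 ± 0.06, adjusted p = 0.13) had the same sign as in control hearts without passing. With quantile scaling, 1 of the alternative settings, Itgb1 did pass in limma (0.18, adjusted p = 0.029). Over the alternative settings Sgca was at −0.25 to −0.12. The value of −0.25 was that without heart 14, which leaves a single CKO sham heart at 2 weeks. Dmd was at 0.06 ± 0.10, Dag1 at −0.26 ± 0.14, Utrn at −0.07 ± 0.10, Vcl at −0.08 ± 0.08 and Itga7 at −0.11 ± 0.08 (adjusted p 0.26 to 0.77).

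**Figure D3:**
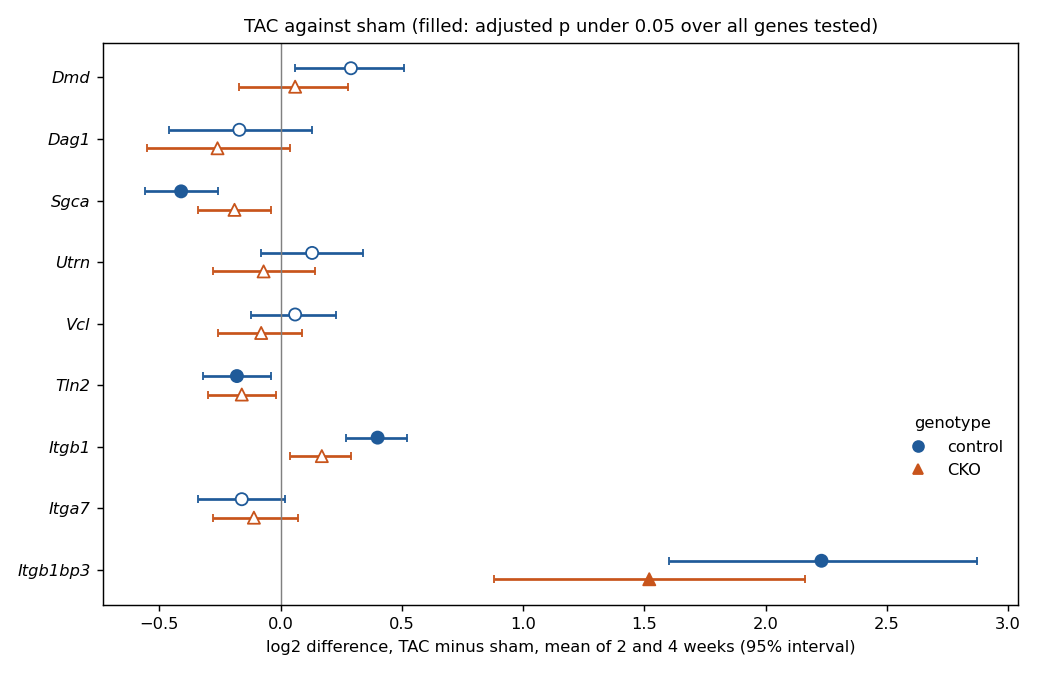
log2 difference between TAC and sham hearts, mean of 2 and 4 weeks, with its 95% interval, for each gene in control (circles) and CKO hearts (triangles); filled symbols have an adjusted p under 0.05. Itgb1bp3 lies at 2.23 and 1.52 and the other 8 genes between −0.41 and 0.40.

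In the surrounding lists, against 9.11% of all genes called in CKO hearts, there were 0 calls of 15 in the dystrophin complex, 1 lower of 13 glycosylation genes, 2 higher and 2 lower of 34 adaptors, 1 higher of 15 integrin subunits, 6 higher and 2 lower of 17 laminin and basement membrane genes, and 1 higher and 1 lower of 11 NAD genes. Over the alternative settings, 2 to 7 laminin and basement membrane genes were higher and 0 to 2 lower. B3gnt1, the glycosylation gene, fell by 0.33 ± 0.08 (adjusted p = 0.023), a call lost without heart 3, 4, 8, 14 or 31 (highest adjusted p 0.11) or the 5 hearts with high Myl7 (−0.28, adjusted p = 0.088). Itga9 rose by 0.67 ± 0.10 (adjusted p = 0.0015), Nrap by 0.59 ± 0.10 (adjusted p = 0.0036), Col4a1 by 0.75 ± 0.11 and Col4a2 by 0.68 ± 0.11 (adjusted p = 0.0021 and 0.0023). Fibroblast markers were 5 higher and 1 lower of 10 (1 to 5 higher over the settings), summing to 1249 to 1798 FPKM after TAC and 1344 to 1574 FPKM in sham; 0 of 10 macrophage markers passed in limma (0 to 1 over the settings).

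Whether the TAC response differed between genotypes was tested on the difference itself, and 0 of 9 genes passed, where 1.25% of all genes did. At an unadjusted p under 0.05 there were 2 of 9, and 1677 of all 12589 genes tested. The difference, CKO minus control, was −0.23 ± 0.08 for Itgb1 (unadjusted p = 0.015 and adjusted p = 0.23 in limma) and 0.23 ± 0.10 for Sgca (adjusted p = 0.34). For Itgb1bp3 the difference was −0.72 ± 0.42 with a 95% interval of −1.62 to 0.19 (adjusted p = 0.51), an interval that holds an equal response as well as a clearly smaller one in CKO hearts. The others were −0.23 (Dmd), −0.20 (Utrn), −0.14 (Vcl), −0.09 (Dag1), 0.05 (Itga7) and 0.02 (Tln2), all with adjusted p of 0.56 or more. Outside the 9, Des was called: it went from 1049 to 1203 FPKM in the CKO means against 1055 to 1861 FPKM in control, a difference of −0.63 (adjusted p = 0.0030). Itgb5 (−0.40, adjusted p = 0.052) and Itgb6 (1.24, adjusted p = 0.066) were near the threshold. Nmnat1, of NAD synthesis, passed (0.54 ± 0.12, adjusted p = 0.045), but not under 20 of 29 alternative settings (highest adjusted p 0.20). Of the fibroblast markers, 4 of 10 had a lower response in CKO hearts.

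Split by time, fewer genes were called at 4 weeks than at 2 weeks, among the 9 as among all genes. The counts do not set the 9 apart. At 2 weeks, 3 of 9 genes were called in control hearts (23.8% of all genes) and 3 of 9 in CKO hearts (19.3% of all genes), in both cases Sgca lower and Itgb1 and Itgb1bp3 higher. At 4 weeks, 2 of 9 were called in control hearts (12.7% of all genes), Itgb1 and Itgb1bp3. In CKO hearts 0 of 9 were called then (0.262% of all genes). There 2 of 9 had an unadjusted p under 0.05, as did 1601 of all 12589 genes tested. In CKO hearts at 2 weeks Itgb1 was at 191 and 201 FPKM after TAC and at 150.0 and 161 FPKM in sham, a log2 difference of 0.34 ± 0.08 (adjusted p = 0.014). At 4 weeks it was at 163 and 144 FPKM after TAC and 156 and 151 FPKM in sham, overlapping, with a log2 difference of −0.01 ± 0.08 (adjusted p = 0.99). The 2-week call was lost without heart 14 or 31 (0.29 and 0.30), or without the 5 hearts with high Myl7 (0.29). Each of these fits leaves a single heart on a side. Itgb1bp3 in CKO hearts stood at 2.06 ± 0.42 at 2 weeks (adjusted p = 0.0053) and at 0.97 ± 0.42 at 4 weeks (adjusted p = 0.35). Its 2-week call was lost without heart 15 or 31 (1.65 and 1.45), again with a single heart on a side. Fits of only the groups compared ended the 4-week calls in control hearts (adjusted p 0.15 for Itgb1 and 0.066 for Itgb1bp3) and the 2-week calls in CKO hearts (0.11 for Itgb1, 0.10 for Itgb1bp3 and 0.076 for Sgca).

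Sgca showed the change with time that passed a test. In CKO hearts at 2 weeks it was at 84.7 and 77.3 FPKM after TAC and at 119 and 142 FPKM in sham, a log2 difference of −0.68 ± 0.10 (adjusted p = 8.8e-04). At 4 weeks it was at 123 and 124 FPKM after TAC and at 101 and 99 FPKM in sham, a difference of 0.31 ± 0.10 in the other direction that did not pass (adjusted p = 0.20). Both TAC hearts lay below both sham hearts at 2 weeks and above them at 4 weeks. The change between the times was 0.99 ± 0.14 (95% interval 0.69 to 1.29, adjusted p = 0.0045), the 1 call of 9 in CKO hearts, where 6.54% of all genes were called; it missed the threshold when only these CKO groups were fitted (0.99, adjusted p = 0.064). In control hearts the change was 0.32 ± 0.14 (adjusted p = 0.33). There 0 of 9 genes were called, against 0.00794% of all genes. At an unadjusted p under 0.05 were 2 of 9, and 1718 of all 12589 genes tested. Both arms contribute to the CKO value, since the mean of Sgca was higher after TAC and lower after sham surgery at 4 weeks than at 2 weeks.

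Between genotypes, the difference in the TAC response of Sgca did not pass: it was 0.56 ± 0.14 at 4 weeks, with an unadjusted p of 0.0013 and an adjusted p of 0.097 in limma, and −0.11 ± 0.14 at 2 weeks (adjusted p = 0.92). At 4 weeks 0 of 9 genes passed this test, where 0.747% of all genes did. At an unadjusted p under 0.05 there were 2 of 9, and 1547 of all 12589 genes tested. At 2 weeks 0 of 9 passed (0.0159% of all genes). An unadjusted p under 0.05 was then found for 1 of 9, and for 997 of all genes tested. That 1 gene was Dmd, with −0.45 ± 0.21 (adjusted p = 0.63). For the change with time in CKO hearts, 6.54% of all genes were called. The dystrophin complex list held 4 such calls among 15 genes tested, 3 higher and 1 lower. Of those named here, after their values were seen, Sgca and Sgcb (0.76 ± 0.19, adjusted p = 0.032), genes of the muscle sarcoglycan complex, were higher and Sgce was lower (−0.78 ± 0.14, adjusted p = 0.012). The call of Sgcb was lost without heart 3, 8, 15 or 31 and that of Sgce without heart 8 or 31 (adjusted p 0.053 to 0.15), and both without the hearts with high Myl7. Along with these, the fibroblast markers had 6 of 10 calls for a lower response at 4 weeks and the cardiac myocyte markers 2 of 10 for a higher one; the summed level of the myocyte markers was 67476 and 77014 FPKM in CKO TAC hearts at 2 weeks and 91770.4 and 95964 FPKM at 4 weeks, and its part in the Sgca values was not tested.

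**Figure D4:**
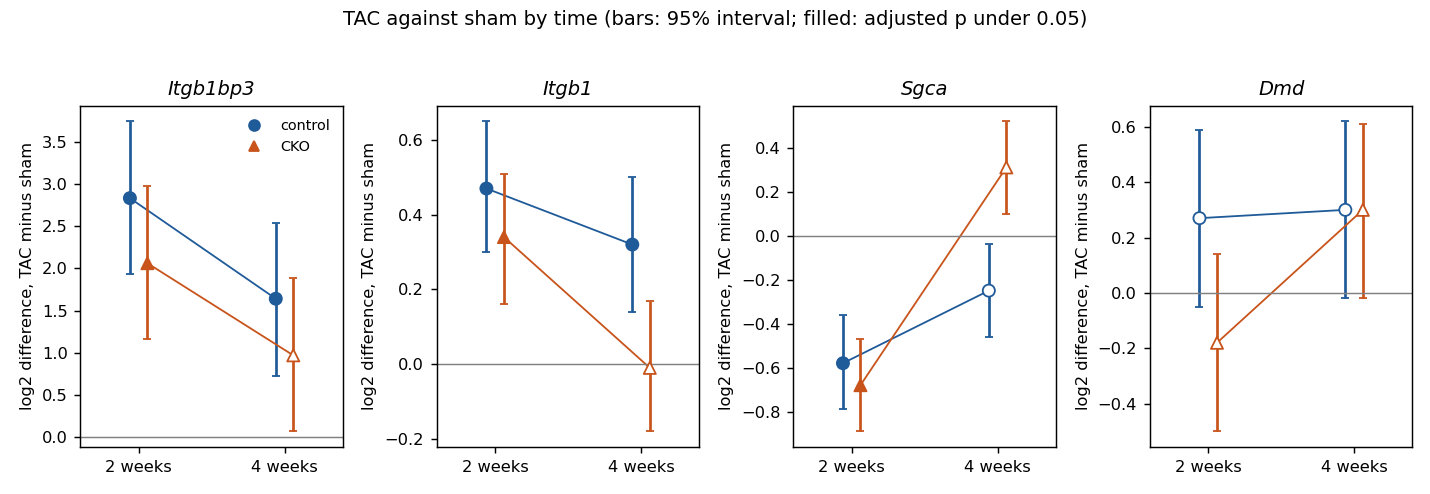
log2 difference between TAC and sham at 2 and 4 weeks with its 95% interval, for Itgb1bp3, Itgb1, Sgca and Dmd in control (circles) and CKO hearts (triangles); filled symbols have an adjusted p under 0.05, and the vertical axes differ between panels. Sgca goes from −0.68 to 0.31 in CKO hearts and from −0.58 to −0.25 in control hearts.

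Between genotypes, 0 of 9 genes passed in any comparison of levels. At the end of tamoxifen, 0 of 9 were called (0.0159% of all genes). At an unadjusted p under 0.05 were 0 of 9, and 431 of all 12589 genes tested. Itgb1bp3 was then at 6.43 and 6.19 FPKM in control and at 3.85 and 4.65 FPKM in CKO hearts, which do not overlap, with a log2 difference of −0.52 ± 0.42. In sham hearts 0 of 9 were called (0.00794% of all genes), and the log2 differences lay between −0.16 (Itgb1bp3) and 0.11 (Itgb1). At an unadjusted p under 0.05 were 0 of 9, and 518 of all 12589 genes tested. Over all stages 0 of 9 were called (0.151% of all genes). At an unadjusted p under 0.05 were 2 of 9, and 1082 of all 12589 genes tested. The 2 were Dmd (−0.17 ± 0.07, adjusted p = 0.47) and Itgb1bp3 (−0.52 ± 0.19, adjusted p = 0.43).

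The same pair of genes was at an unadjusted p under 0.05 in the TAC hearts, as were 2165 of all 12589 genes tested. There 0 of 9 were called, and 3.45% of all genes were. Dmd was at 14.8 and 13.1 FPKM in CKO and 16.5 and 22.7 FPKM in control TAC hearts at 2 weeks, and at 17.9 and 16.7 FPKM in CKO and 20.3 and 17.2 FPKM in control TAC hearts at 4 weeks. The 2-week hearts did not overlap and the 4-week hearts did. The log2 difference was −0.29 ± 0.10 (adjusted p = 0.17), and over the alternative settings it was −0.40 (without heart 11) to −0.17. For Itgb1bp3, whose values are given above, it was −0.87 ± 0.30 (adjusted p = 0.14). In the lists around them, 4 of 34 adaptors were lower in CKO than in control TAC hearts, among them Des (−0.64 ± 0.06, adjusted p = 1.0e-04), Flnc (−0.56 ± 0.12, adjusted p = 0.022) and Nrap (−0.41 ± 0.10, adjusted p = 0.041). These and the next genes were named after their values were seen. Of the integrin subunits, Itgb5 was lower (−0.39 ± 0.06, adjusted p = 0.0047) and Itgb6 higher (0.97 ± 0.21, adjusted p = 0.023). The call of Itgb5 was lost when only the groups compared were fitted (adjusted p = 0.075), as were those of Flnc, Nrap and Itgb6 (0.11, 0.18 and 0.18). The call of Flnc was lost without heart 1, 2, 13, 31, 32 or 41, and that of Itgb6 without heart 1, 2, 3, 13 or 32. Nrap lost its call without 14 of the 20 hearts taken singly. Among these were hearts outside the TAC groups, without which its difference stayed at −0.41. Of the fibroblast markers, 4 of 10 were also lower in CKO than in control TAC hearts, where their sums were 1249 to 1798 FPKM and 1356 to 2325 FPKM, and their part was not tested.

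Ordered by group mean, Itgb1bp3 ran from control TAC at 2 weeks (36.0 FPKM) through control TAC at 4 weeks (20.5 FPKM), CKO TAC at 2 weeks (19.8 FPKM) and CKO TAC at 4 weeks (12.3 FPKM) to the 6 groups without TAC, at 4.14 to 6.57 FPKM. The first group did not overlap the next, while each later TAC group overlapped its neighbour in the order. Itgb1 began with control TAC at 2 weeks (208 FPKM), CKO TAC at 2 weeks (196 FPKM) and control TAC at 4 weeks (172 FPKM), none overlapping the next, and CKO TAC at 4 weeks (154 FPKM) lay among the groups without TAC, at 135 to 155 FPKM. Sgca was lowest in CKO and control TAC at 2 weeks (81.0 and 84.0 FPKM), which overlapped each other, followed by CKO sham at 4 weeks and control TAC at 4 weeks (106 FPKM). For Vcl and Itga7 every neighbour in the order overlapped.

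As a description with no test, Itgb1 and Itgb1bp3 went together over the 20 hearts (Pearson r of log2 values 0.84, and 0.53 for deviations from the group means). Both had negative r with Sgca (−0.78 and −0.69) and Tln2 (−0.85 and −0.65). For the deviations the latter were 0.31 and −0.14 with Sgca and −0.27 and −0.10 with Tln2. Within groups the pattern was another: Dmd and Dag1 correlated at 0.10 over all hearts and 0.77 in their deviations, and Vcl and Tln2 at 0.15 and 0.79. All these values share the library of each heart. Among 10807 other genes averaging 1 FPKM or more, those most like Itgb1bp3 over the 20 hearts were Ankrd23 (r = 0.95; 0.78 in deviations) and Xirp2 (0.94; 0.75). Those most like Itgb1 were Csrp2 (0.94; 0.62) and Prelid1 (0.93; 0.32), and those most like Sgca were Idh3g (0.95; 0.77) and Fahd2a (0.95; 0.77). Dmd was most like Myom1 (0.93; 0.83) and Ube2d3 (0.89; 0.73), and Dag1 like Eif2c2 (0.93; 0.89) and Hipk2 (0.91; 0.91). Utrn was most like Kctd20 (0.89; 0.88) and Mtss1l (0.87; 0.82), Tln2 like Acads (0.92; 0.42) and Macf1 (0.92; 0.93), and Itga7 like Mmadhc (0.83; 0.75) and Jmjd4 (0.82; 0.71). Vcl had the lowest best values, with Tulp4 (0.76; 0.74) and Parp4 (0.76; 0.75).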

How the data were processed

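The authors deposited 1 table of FPKM values per heart. Per the labels' protocols, RNA was extracted with miRNeasy and libraries were made with a stranded mRNA kit; the submitters' processing notes name TopHat2 2.1.1, Bowtie2, Cuffdiff 2.2.1 and the mm10 genome. FPKM values were used as deposited. They hold no counts, so depth was compared only as the relative step size of low values, which does not give a counting error. FPKM depends on the other genes of a library, so a shift in a few abundant transcripts moves every value.

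The 9 genes and the 7 lists around them were chosen with earlier results of these data known. The deposited FPKM values were put on the log2(FPKM + 0.5) scale, which understates changes of low genes. Genes averaging 0.5 FPKM or more (12589) were fitted with limma 3.58.1 in R 4.3.3, with 1 mean per group, an intensity trend in the prior and 10 residual degrees of freedom; contrasts over both times weight 2 and 4 weeks equally. P-values are two-sided and Benjamini-Hochberg adjusted over all genes tested, with a threshold of 0.05. The method was tested on simulated data. From each list, up to 4 genes with the smallest p for TAC in control hearts and up to 2 with the smallest p for the difference between genotypes are named, beside any said to be named after their values were seen. Genes most like a member were ranked by Pearson r over the 20 hearts. Alternatives were another pseudocount (0.1 or 1), no filter or one of 3 FPKM, median-ratio and quantile scaling, a prior without trend, fits of only the groups compared, each heart left out, and the 5 hearts left out in which Myl7 reached 10 FPKM. Leaving out a heart leaves a single heart in its group. Without the 5 hearts, the control sham, control TAC and CKO sham groups at 2 weeks keep a single heart each. Positions are from GENCODE M21. Some genes that the lists count are not reported here by name.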

Additional observations from a re-analysis of the deposited data

Results flagged for a closer look

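The Sgca response to TAC in CKO hearts differed between 2 and 4 weeks by the limma test of the change itself (log2 0.99 ± 0.14, adjusted p = 0.0045). A single heart stood apart from the other 3 in 3 of 36 sets of 4 hearts examined, by the gap to its nearest neighbour relative to the range of the set. Each set held the 2-week and 4-week hearts of the same genotype and operation. If all 4 came from a single population, chance alone would give about 1 such set in 20. A difference between the times can also set a heart apart, and this was not tested. In control TAC hearts, Utrn was at 11.7 FPKM in heart 32, with 9.70 FPKM in heart 1 as the lowest value. In control sham hearts, Itga7 was at 65.9 FPKM in heart 16, which is 1 of the 5 hearts with high Myl7, and at 54.7 to 56.4 FPKM in the others. In CKO sham hearts, Itgb1bp3 was at 2.86 FPKM in heart 15 and at 5.42 to 5.74 FPKM in the others.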

How the results depend on the processing

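Across 29 alternative settings, the higher Itgb1bp3 and Itgb1 and the lower Sgca after TAC in control hearts over both times passed the test in every one, with log2 differences of 2.02 to 2.53, 0.35 to 0.44 and −0.46 to −0.37; so did Itgb1 and Itgb1bp3 at 2 weeks. The values repeated were those of 53 results. These were the 9 genes for TAC over both times in each genotype and for the difference between genotypes, and elsewhere those with an unadjusted p under 0.05. Of the repeated values, 1472 kept their direction and side of the threshold, 35 lost a call, 15 gained one, and 13 changed sign. All changes of sign were in values that had not passed. Without the 5 hearts with high Myl7, Dag1 after TAC in control hearts was 0.08, and the differences between genotypes of Tln2 and Itga7 were −0.03 and −0.10. Leaving out 1 heart at a time gave −0.35 to 0.02 for Dag1 and −0.02 to 0.14 for Vcl after TAC in control hearts, and −0.17 to 0.03 for Utrn in CKO hearts. For the difference between genotypes it gave −0.28 to 0.10 for Dag1, −0.01 to 0.06 for Tln2 and −0.01 to 0.12 for Itga7. The number of the 9 genes called after TAC over both times in CKO hearts was 2 with quantile scaling, 0 with only the groups compared, and 1 to 2 without 1 heart. After TAC at 4 weeks in control hearts it was 0 with only the groups compared, 1 without the hearts with high Myl7, and 0 to 2 without 1 heart. At 2 weeks in CKO hearts it was 0 with only the groups compared and 1 to 3 without 1 heart. The genotype difference at 4 weeks held 1 call with quantile scaling (Sgca, 0.58, adjusted p = 0.033). The change with time in CKO hearts held 2 calls with quantile scaling (Sgca and Itgb1) and 0 with only the groups compared. Between genotypes in TAC hearts, 0 to 1 were called without 1 heart. Fits of only the groups compared use fewer samples for the spread. Where a heart left out is in none of the groups compared, the difference itself stays, and only the shared spread and the adjustment change. The cause of the other changes was not tested. Over all genes, the calls in CKO hearts over both times went from 1147 to 313 with only the groups compared, those at 2 weeks from 2424 to 15 and those for the change with time from 823 to 11; in control hearts at 4 weeks they went from 1603 to 355, in TAC hearts between genotypes from 434 to 124, and for the genotype difference at 4 weeks from 94 to 0. Without the hearts with high Myl7, calls in control hearts went from 3956 to 2382 over both times and from 2998 to 1138 at 2 weeks, and for the genotype difference from 157 to 24. Comparisons over all stages and at the end of tamoxifen could not be fitted without those hearts. With 2 hearts a group and unknown depth, changes of the size seen for Dmd, Tln2 or Itga7 lie near what these data can separate. No paired analysis was possible because each heart's number occurs once in the labels.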
